A study of Mus musculus with 12 samples.

Results

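The mRNA of 10 plasma membrane amino acid transporter genes was measured by RNA-Seq in 4 lines of mouse embryonic fibroblasts (MEFs). The genes, *Slc7a11*, *Slc7a5*, *Slc3a2*, *Slc7a1*, *Slc7a3*, *Slc38a2*, *Slc38a1*, *Slc1a4*, *Slc1a5* and *Slc6a9*, were chosen by name, with earlier results of these data known. They are 10 of the 24453 genes in the count matrix. All 10 passed the filter on low counts, which left 14026 genes for testing. TM6 MEFs, the parental line, are *Pnpt1* neo-flox/neo-flox cells of strain C57BL6/J that were immortalized with SV-40 large T antigen, and they received no treatment. *Pnpt1* encodes polynucleotide phosphorylase (PNPase), an RNA-degrading enzyme of mitochondria. The rho0 MEFs carry the same *Pnpt1* neo-flox/neo-flox alleles and were made by culture of TM6 MEFs with ditercalinium dichloride dihydrochloride at 750 ng/mL for 3 weeks and growth from a single cell colony, which leaves cells without mitochondrial DNA (mtDNA). PKO-1 and PKO-6 MEFs are clones 1 and 6 that grew from single TM6 cells after Adenoviral-Cre, which removes the floxed exon of *Pnpt1*, and the study describes these PNPase knockout (PKO) clones as lacking mtDNA as well. The count matrix has 0 genes of mtDNA, so its loss was not checked here. All 4 lines were kept with uridine at 50 µg/mL and contributed 3 biological replicates each, so 12 libraries were compared. The rho0 line and each PKO line are 1 clone, and a spread between replicates is therefore a spread between cultures of a line. An effect of mtDNA loss, of the drug, of Cre or of picking a clone cannot be told apart from the difference between lines.

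Amino acid transporters of the plasma membrane set how fast cells take up amino acids that they cannot make, or cannot make fast enough. *Slc7a11* and *Slc7a5* encode light chains that carry substrate and need the heavy chain encoded by *Slc3a2* to reach the cell surface, and the other genes encode transporters that work without it. When amino acids run short or mitochondria fail, the kinases of the integrated stress response raise the transcription factor ATF4, and many amino acid transporter genes are known targets of ATF4. *Slc7a11* is also a known target of NRF2, the factor of the antioxidant response.

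The promoters of 6 of the 10 genes were held by the RefSeq-derived table used here (build GRCm38.p6), in 9 windows that run from 250 bases before to 50 bases after an annotated start. They were read for the letters TGATGNAA of the C/EBP-ATF response element (CARE), which ATF4 binds with a C/EBP partner, and for the letters TGACNNNGC at the core of the antioxidant response element (ARE), on both strands. A CARE match was present in 3.97% of all 32851 promoter windows and an ARE match in 12.4% of them, and by gene the shares were 4.51% and 14.0% of 27025 genes. *Slc7a11* and *Slc1a4* were the 2 of these 6 genes with a CARE match, and the stretches that hold the matches are shown because ATF4 target genes are compared with the transporters below. The capitals mark the letters matched, and positions count from +1 at the annotated start with no position 0.
*Slc7a11*, chr3:50443614-50443713, minus strand, positions -100 to -1: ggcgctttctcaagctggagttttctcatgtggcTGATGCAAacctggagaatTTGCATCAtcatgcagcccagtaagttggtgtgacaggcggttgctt
*Slc1a4*, chr11:20332704-20332773, minus strand, positions -60 to 10: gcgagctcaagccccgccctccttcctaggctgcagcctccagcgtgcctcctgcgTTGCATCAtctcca
The *Slc7a11* window held a match at -66 to -59 in the direction of the gene and another at -47 to -40 on the opposite strand. The *Slc1a4* match spanned the annotated start, from -4 to 4, on the opposite strand. ARE matches lay in windows of *Slc7a1* (-11 to -3), *Slc38a2* (-27 to -19) and *Slc6a9* (-46 to -38 and -45 to -37, in windows of different starts), and none of the matches overlapped another. Both *Slc6a9* matches were at starts inside the gene. The window at the start of its 1 counted transcript held no match. These matches are letters in a window and are not measured binding sites.

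Total counts ranged from 47164860 to 67991378 per library (median 55405646), and *Rn45s*, the ribosomal RNA precursor, took 12.2% to 19.6% of them. The knockout was read first. *Pnpt1* had normalized counts (counts divided by the scaled library size) of 2832 to 3319 in TM6, 5051 to 5510 in rho0, 1191 to 1276 in PKO-1 and 1720 to 2214 in PKO-6, so its mRNA was lower in both PKO clones and remained detectable. The deletion takes 1 exon, and reads from the rest of the transcript are still counted. Fibroblast markers summed to between 357781 and 662287 normalized counts per library over 10 genes, and the sums were lowest in PKO-6. Single markers were not abundant throughout. *Thy1* did not pass the filter on low counts and was at 0 in PKO-6, and *Pdgfra* averaged 81.6 in rho0. By the call rule given below, 6 of the 9 tested markers were lower than TM6 and 1 higher, in rho0 and also in PKO-6. In PKO-1, 2 were lower and 4 higher. Of all tested genes, 21.4% were called lower in rho0, 19.4% in PKO-6 and 17.9% in PKO-1, and 20.7%, 21.9% and 16.4% higher. The markers of other cell types summed to at most 3263 (epithelial, mainly *Krt19*), 177 (endothelial), 212 (leukocyte) and 90.1 (neuron) normalized counts, and *Adgre1* was at 0 in all 4 lines. The endothelial, leukocyte and neuron sums were highest in PKO-6, and the part of these markers in the values below was not tested. In such bulk RNA, fewer cells with a transcript and less of it per cell cannot be told apart.

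Measured per transcript length, the 10 mRNAs spanned a wide range of levels. In TM6, *Slc38a2* stood highest at 161 ± 4.06 TPM (mean ± SD, n = 3; TPM is the share of all transcripts after correction for transcript length), followed by *Slc7a5* at 123 ± 3.29 and *Slc3a2* at 103 ± 4.86. *Slc7a1* (48.1 TPM), *Slc38a1* (35.1 TPM), *Slc1a5* (28.5 TPM) and *Slc1a4* (21.0 TPM) were in the middle, and *Slc6a9* (12.7 TPM), *Slc7a11* (7.32 TPM) and *Slc7a3* (0.68 TPM) were lowest. The order changed between lines, although *Slc38a2* ranked 1, *Slc7a11* ranked 9 and *Slc7a3* ranked 10 in each. *Slc1a5* moved from rank 6 in TM6 to rank 4 in rho0 with 94.1 TPM, and *Slc6a9* from rank 8 to rank 6 with 71.4 TPM. The summed level of the 10 mRNAs was 541 ± 4.76 TPM in TM6, 918 ± 22.5 in rho0, 595 ± 18.3 in PKO-1 and 807 ± 18.2 in PKO-6. Replicates of a line lay close together, with a median coefficient of variation of the normalized counts of 4.45% over the 40 pairs of a gene and a line. On that scale the coefficient was highest for *Slc7a3* in TM6 (24.9%), and the highest for another gene was that of *Slc7a5* in PKO-6 (14.7%).

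Most of the transporter mRNAs were higher in the lines without mtDNA than in TM6, and none was called lower. A gene was called when its adjusted p was below 0.01 and its absolute log2 fold change above 0.5 in edgeR's quasi-likelihood test. In rho0, 8 of the 10 were called higher against TM6, where 20.7% of all tested genes were called higher and 21.4% lower. The count was 5 of the 10 higher in PKO-1, against 16.4% of all genes higher and 17.9% lower. In PKO-6, 8 of the 10 were called higher, against 21.9% higher and 19.4% lower among all genes. The median log2 fold change of the 10 was 1.07 in rho0, 0.45 in PKO-1 and 1.09 in PKO-6, and that of all tested genes was 0.02, 0.00086 and 0.01. With both PKO clones averaged and set against TM6, 6 of the 10 were called higher, against 17.6% higher and 17.4% lower among all genes. The 3 lines were compared with the same 3 TM6 libraries, and the plot of counts by library gives each value behind these calls.

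**Figure D1:**
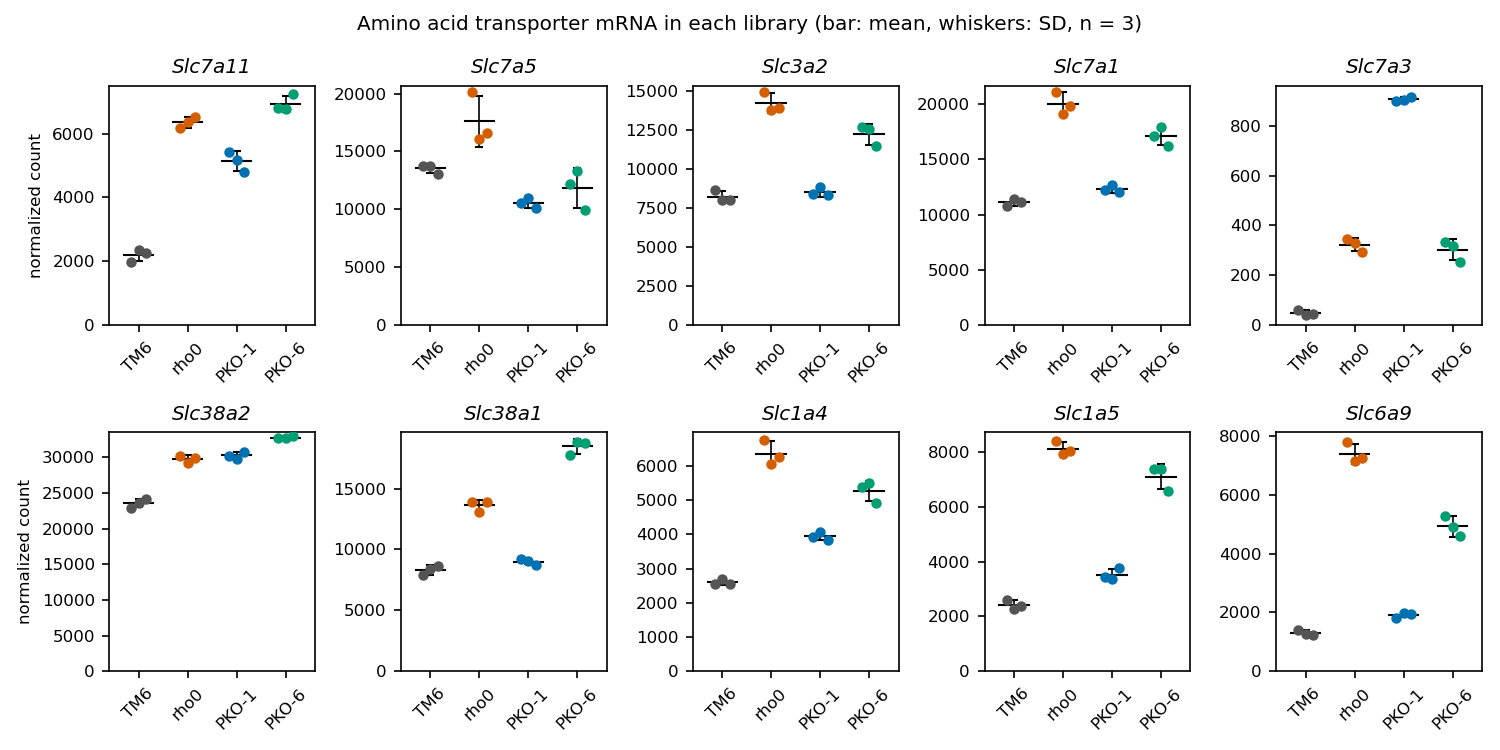
Normalized counts (vertical axis, linear from 0) of the 10 transporter genes in each of the 12 libraries, by line on the horizontal axis, with the mean and SD of 3 replicates. TM6 was the lowest line in 9 of the 10 panels, PKO-1 was highest for *Slc7a3*, and the 3 PKO-1 libraries of *Slc3a2* overlapped those of TM6.

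*Slc7a11* encodes xCT, which brings in cystine for glutathione synthesis in exchange for glutamate. Its normalized counts were 1980, 2345 and 2241 in TM6, 6173, 6349 and 6532 in rho0, 5419, 5164 and 4795 in PKO-1, and 6801, 6770 and 7232 in PKO-6. Every library of a line without mtDNA had more than 2 times the count of any TM6 library. The rise over TM6 was 2.90-fold in rho0 (log2 fold change 1.54 ± 0.07, SE; adjusted p = 1.83e-10), 2.34-fold in PKO-1 (1.23 ± 0.07; adjusted p = 2.20e-09) and 3.17-fold in PKO-6 (1.66 ± 0.07; adjusted p = 6.23e-11). *Slc7a11* and *Slc7a3* were the only members whose rise in PKO-1 exceeded a log2 fold change of 1. Among the lines without mtDNA, *Slc7a11* was lowest in PKO-1, by a log2 difference of -0.31 from rho0 (adjusted p = 0.00093) and -0.44 from PKO-6 (adjusted p = 5.46e-05), both under the size needed for a call. PKO-6 and rho0 differed by 0.13 ± 0.06 (adjusted p = 0.114).

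*Slc7a5* encodes LAT1, the exchanger that takes up leucine and other large neutral amino acids, and it did not follow the rest. Its normalized counts were 13774, 13783 and 13089 in TM6, 20151, 16057 and 16631 in rho0, 10498, 11010 and 10148 in PKO-1, and 12184, 13304 and 9909 in PKO-6. All rho0 libraries were above TM6, all PKO-1 libraries were below it, and PKO-6 overlapped both TM6 and PKO-1. Against TM6 the log2 fold changes were 0.38 ± 0.10 in rho0 (adjusted p = 0.00405), -0.36 ± 0.10 in PKO-1 (adjusted p = 0.00641) and -0.20 ± 0.10 in PKO-6 (adjusted p = 0.0928), none of which was called. *Slc7a5* was the only one of the 10 with its highest level in rho0 and its lowest in PKO-1, and it was lower than rho0 in PKO-1 by a log2 difference of -0.74 ± 0.10 (adjusted p = 2.52e-05) and in PKO-6 by -0.58 ± 0.10 (adjusted p = 0.000302). The second call rested on single libraries, because the difference was -0.49 without rho0 replicate 1 and -0.46 without PKO-6 replicate 3, and it was also lost, at -0.30, relative to the median of chromosome 8. The tested genes of chromosome 8, where *Slc7a5* lies, had a median log2 fold change of -0.43 in PKO-6, and relative to that median *Slc7a5* was higher than in TM6 by 0.23. In rho0 the chromosome median was -0.18, and relative to it *Slc7a5* was higher by 0.56, past the size needed for a call.

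*Slc3a2* encodes 4F2hc (CD98), the heavy chain shared by these light chains. The normalized counts of *Slc3a2* were 8617, 8020 and 7979 in TM6, 14950, 13780 and 13889 in rho0, 8365, 8862 and 8297 in PKO-1, and 12675, 12535 and 11454 in PKO-6. The rho0 and PKO-6 libraries were all above TM6, and the PKO-1 and TM6 libraries overlapped. *Slc3a2* rose 1.73-fold in rho0 (log2 fold change 0.79 ± 0.06; adjusted p = 3.46e-08) and 1.49-fold in PKO-6 (0.57 ± 0.06; adjusted p = 8.29e-07), and in PKO-1 the log2 fold change was 0.05 ± 0.06 (adjusted p = 0.45). The clones differed by -0.52 ± 0.06 (PKO-1 against PKO-6, adjusted p = 3.44e-06), a call that was lost at -0.49 without PKO-6 replicate 1.

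The balance of the heavy chain and its partners differed from line to line. The light chains that pair with *Slc3a2* and had a measurable level were *Slc7a5*, *Slc7a11* and *Slc7a6*, which encodes an exchanger of cationic for neutral amino acids, and *Slc7a7*, *Slc7a8* and *Slc7a10* stayed at or below a mean of 0.46 TPM in every line. *Slc3a2* had 0.652 ± 0.0279 TPM per TPM of all light chains in TM6, 0.876 ± 0.0396 in rho0, 0.798 ± 0.0148 in PKO-1 and 1.05 ± 0.0628 in PKO-6, and none of the ranges of the 4 lines overlapped. Within the light chains, *Slc7a11* held 4.62% ± 0.388 of the summed TPM in TM6, 10.4% ± 1.12 in rho0, 12.8% ± 0.543 in PKO-1 and 15.9% ± 2.26 in PKO-6. *Slc7a5* had a share of 77.7% ± 1.03 in TM6 and 77.8% ± 2.59 in rho0, and 71.5% ± 1.04 in PKO-1 and 72.7% ± 3.38 in PKO-6. *Slc7a6* had a mean level of 27.6 TPM in TM6, 23.5 TPM in rho0, 19.9 TPM in PKO-1 and 15.4 TPM in PKO-6.

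**Figure D2:**
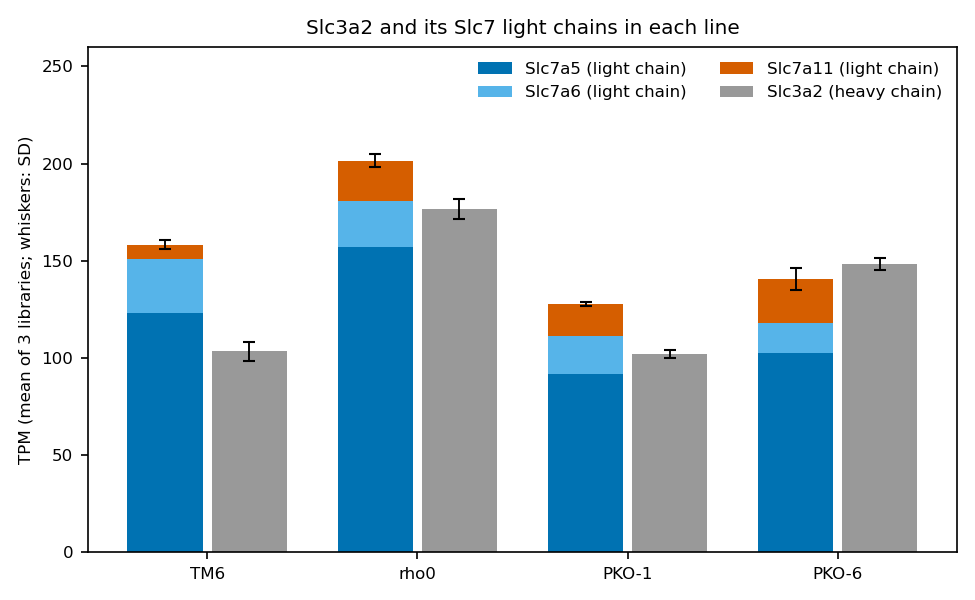
Mean TPM (vertical axis, from 0, n = 3 per line) of the heavy chain *Slc3a2* beside the stacked light chains *Slc7a5*, *Slc7a6* and *Slc7a11* in each line, with whiskers for the SD of *Slc3a2* and of the summed light chains. The heavy chain bar is lower than the light chain stack in TM6, rho0 and PKO-1 and slightly higher in PKO-6, where their ratio was 1.05.

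*Slc7a1* and *Slc7a3* encode CAT-1 and CAT-3, carriers of arginine, lysine and ornithine. *Slc7a1* had normalized counts of 10754, 11439 and 11156 in TM6, 21149, 19092 and 19892 in rho0, 12241, 12728 and 12013 in PKO-1, and 17125, 17915 and 16263 in PKO-6. No line overlapped another, and the order was TM6, PKO-1, PKO-6 and rho0. The rise was 1.80-fold in rho0 (log2 fold change 0.85 ± 0.06; adjusted p = 1.29e-08) and 1.54-fold in PKO-6 (0.62 ± 0.06; adjusted p = 2.87e-07), and PKO-1 differed from TM6 by 0.15 ± 0.06 (adjusted p = 0.0329). The difference between the clones, -0.47 ± 0.06, lay just under the size needed for a call and passed it at -0.51 without PKO-6 replicate 3.

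*Slc7a3* showed the widest relative change of the 10 and the lowest counts. Its normalized counts were 61.4, 39.2 and 42.9 in TM6, 345, 330 and 294 in rho0, 900, 906 and 917 in PKO-1, and 335, 317 and 254 in PKO-6. PKO-1 was above every other library, rho0 and PKO-6 overlapped, and TM6 was below all. The rise over TM6 was 18.8-fold in PKO-1 (log2 fold change 4.23 ± 0.15; adjusted p = 4.03e-11), 6.70-fold in rho0 (2.74 ± 0.16; adjusted p = 2.53e-09) and 6.27-fold in PKO-6 (2.65 ± 0.16; adjusted p = 2.84e-09). PKO-1 exceeded PKO-6 by 1.59 ± 0.13 (adjusted p = 1.45e-07) and rho0 by 1.49 ± 0.13 (adjusted p = 2.73e-07), which made *Slc7a3* the only member called higher in PKO-1 than in either of the other lines without mtDNA. *Slc7a3* lies on chromosome X (chrX:101079210-101085405), whose tested genes had a median log2 fold change of -0.75 in rho0, -0.74 in PKO-1 and -0.87 in PKO-6 against TM6, so it moved opposite to the median of its chromosome. Per length, *Slc7a3* made up 1.41% ± 0.384 of the summed *Slc7a1* and *Slc7a3* TPM in TM6, 5.04% ± 0.415 in rho0, 19.6% ± 0.519 in PKO-1 and 5.45% ± 0.581 in PKO-6, and *Slc7a1* stayed the more abundant of the pair in every line.

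The sodium-coupled carriers of glutamine, alanine and other small neutral amino acids, SNAT2 and SNAT1, are encoded by the neighbouring genes *Slc38a2* (chr15:96687392-96699698) and *Slc38a1* (chr15:96571418-96642913), and these differed in how much they moved. *Slc38a2* had normalized counts of 22950, 23633 and 24141 in TM6, 30245, 29260 and 29861 in rho0, 30197, 29808 and 30773 in PKO-1, and 32700, 32630 and 32970 in PKO-6. All libraries without mtDNA were above TM6, and rho0 overlapped PKO-1. The log2 fold changes against TM6 were 0.34 ± 0.05 in rho0 (adjusted p = 2.24e-05), 0.36 ± 0.05 in PKO-1 (adjusted p = 1.50e-05) and 0.48 ± 0.05 in PKO-6 (adjusted p = 7.50e-07), each under the size needed for a call. Among the 10 genes, *Slc38a2* was the one with the smallest spread between the lines without mtDNA.

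*Slc38a1* had normalized counts of 7875, 8407 and 8637 in TM6, 13925, 13050 and 13857 in rho0, 9186, 9093 and 8741 in PKO-1, and 17784, 18851 and 18736 in PKO-6. PKO-6 was highest in all 3 libraries, rho0 came next, and PKO-1 lay just above TM6. It rose 2.22-fold in PKO-6 (log2 fold change 1.15 ± 0.05; adjusted p = 2.50e-10) and 1.64-fold in rho0 (0.71 ± 0.05; adjusted p = 3.82e-08), and PKO-1 differed from TM6 by 0.12 ± 0.05 (adjusted p = 0.0675). The clones differed by -1.04 ± 0.05 (PKO-1 against PKO-6, adjusted p = 1.45e-09). With both clones pooled into 1 group, the difference between the clones enters the error, and the log2 fold change of *Slc38a1* in rho0 kept its size at 0.71 but was no longer called (adjusted p = 0.074). The tested genes of chromosome 15 had a median log2 fold change of -0.38 in rho0, and relative to it *Slc38a2* was higher by 0.72 and *Slc38a1* by 1.09. Per length, *Slc38a1* had 0.219 ± 0.0052 of the TPM of *Slc38a2* in TM6, 0.286 ± 0.00603 in rho0, 0.185 ± 0.00735 in PKO-1 and 0.35 ± 0.011 in PKO-6.

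*Slc1a4* and *Slc1a5* encode ASCT1 and ASCT2, sodium-dependent exchangers of alanine, serine and cysteine, of which ASCT2 also carries glutamine. The normalized counts of *Slc1a4* were 2556, 2687 and 2552 in TM6, 6769, 6061 and 6268 in rho0, 3919, 4058 and 3852 in PKO-1, and 5394, 5496 and 4931 in PKO-6, with no overlap between any lines. *Slc1a4* rose 2.45-fold in rho0 (log2 fold change 1.29 ± 0.06; adjusted p = 2.12e-10), 1.52-fold in PKO-1 (0.60 ± 0.06; adjusted p = 6.04e-07) and 2.03-fold in PKO-6 (1.02 ± 0.06; adjusted p = 1.74e-09). The difference between the clones was -0.42 ± 0.06 (adjusted p = 2.09e-05), under the size needed for a call.

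*Slc1a5* had normalized counts of 2618, 2263 and 2379 in TM6, 8409, 7926 and 8030 in rho0, 3444, 3357 and 3756 in PKO-1, and 7376, 7372 and 6571 in PKO-6. The 4 lines did not overlap, and PKO-1 was much closer to TM6 than rho0 and PKO-6 were. The rise was 3.35-fold in rho0 (log2 fold change 1.75 ± 0.07; adjusted p = 6.70e-11) and 2.94-fold in PKO-6 (1.55 ± 0.07; adjusted p = 1.52e-10). In PKO-1 it was 1.45-fold (0.54 ± 0.07; adjusted p = 9.61e-06), and this call was lost at 0.49 without TM6 replicate 2 or without PKO-1 replicate 3, and at 0.42 relative to the median of its chromosome. Between the clones, *Slc1a5* differed by -1.01 ± 0.07 (PKO-1 against PKO-6, adjusted p = 2.05e-08).

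*Slc6a9* encodes GLYT1, the sodium- and chloride-dependent glycine transporter. Its normalized counts were 1419, 1261 and 1217 in TM6, 7782, 7159 and 7238 in rho0, 1820, 1970 and 1941 in PKO-1, and 5287, 4900 and 4591 in PKO-6. Each line was separate from the others, in the order TM6, PKO-1, PKO-6 and rho0. *Slc6a9* rose 5.69-fold in rho0 (log2 fold change 2.51 ± 0.07; adjusted p = 3.12e-12), 1.47-fold in PKO-1 (0.56 ± 0.07; adjusted p = 1.02e-05) and 3.79-fold in PKO-6 (1.92 ± 0.07; adjusted p = 2.40e-11). It was the only member for which all neighbours in the order of lines differed past the threshold. *Slc6a9* overlaps *Ccdc24* on the opposite strand, and whether the counting used strand is not given in the sources used here.

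The clones of the same knockout differed from each other in these genes. Against PKO-6, PKO-1 had 4 of the 10 called lower (*Slc6a9*, *Slc38a1*, *Slc1a5* and *Slc3a2*) and 1 called higher (*Slc7a3*), where 17.6% of all tested genes were called lower and 11.5% higher. The median log2 difference of the 10 was -0.45, and that of all genes was -0.01. A further 3 of the 10, *Slc7a11*, *Slc7a1* and *Slc1a4*, were lower in PKO-1 at an adjusted p below 0.01 but by less than 0.5. The share of all tested genes in that range was not computed. For *Slc7a5* and *Slc38a2* the log2 differences were -0.16 ± 0.10 (adjusted p = 0.184) and -0.11 ± 0.05 (adjusted p = 0.0498).

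PKO-6 was nearer than PKO-1 to rho0 in the number of calls. PKO-1 had 7 of the 10 called lower than rho0, against 17.6% of all genes, and 1 called higher, against 15.1%, and the 2 without a call were *Slc7a11* and *Slc38a2*. PKO-6 had 2 of the 10 called lower than rho0, *Slc6a9* (-0.59 ± 0.07; adjusted p = 7.56e-06) and *Slc7a5*, against 8.16% of all genes, and 0 called higher, against 13.3%, by edgeR's quasi-likelihood test. A further 4, *Slc3a2*, *Slc7a1*, *Slc1a4* and *Slc38a1*, differed between PKO-6 and rho0 at an adjusted p below 0.01 and by less than 0.5, and of these *Slc38a1* was higher in PKO-6 (0.44 ± 0.05; adjusted p = 1.13e-05). For this range too, the share of all tested genes was not computed. The plot of fold changes places the lines beside each other.

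**Figure D3:**
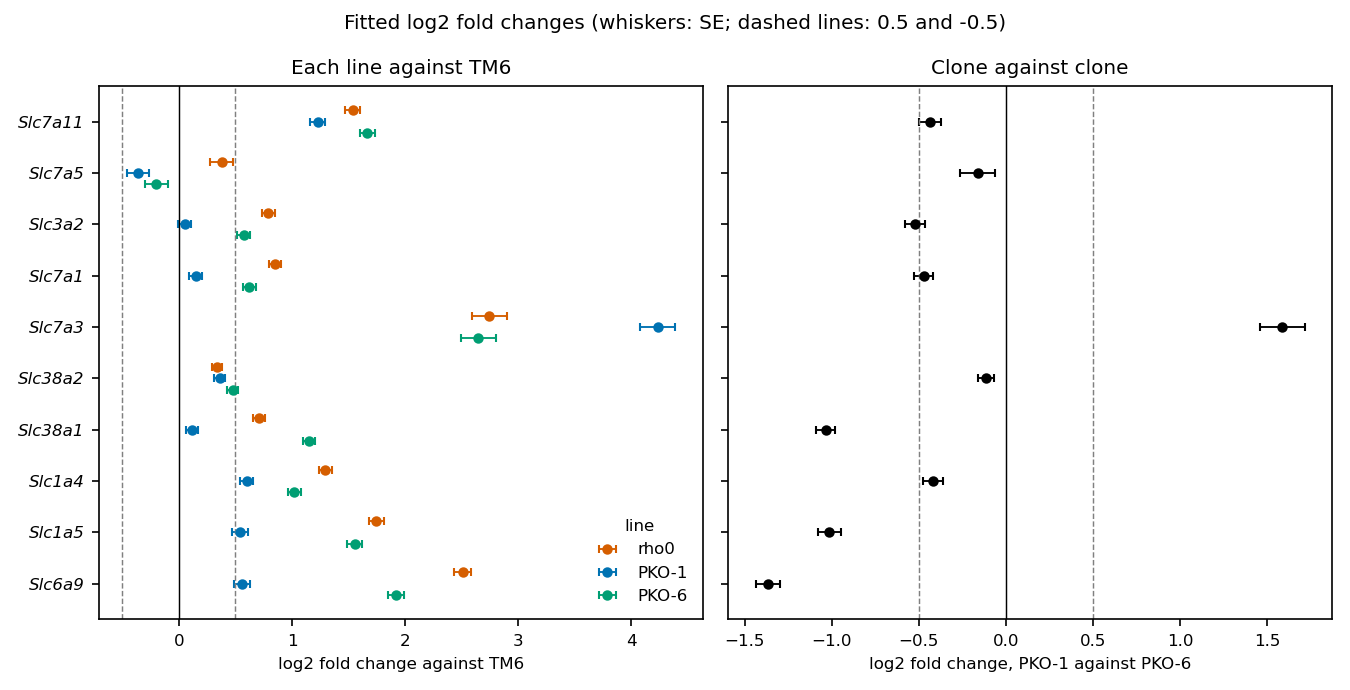
Left, fitted log2 fold changes of the 10 genes in rho0, PKO-1 and PKO-6 against TM6, and right, those of PKO-1 against PKO-6, with SE as whiskers and dashed lines at the call threshold of 0.5. PKO-1 lies nearest to 0 for *Slc3a2* (0.05), *Slc38a1* (0.12) and *Slc7a1* (0.15) and farthest right for *Slc7a3* (4.23), and *Slc7a3* alone is right of 0 in the comparison of clones.

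The reads were divided over more than 1 annotated transcript in 4 of the genes. For *Slc3a2*, the transcript of 2572 bases held 94.0% of the gene's TPM in TM6, 96.9% in rho0, 91.9% in PKO-1 and 95.3% in PKO-6, and the longer one of 2813 bases held the rest. For *Slc38a1*, the longest of 3 transcripts (7752 bases) held 35.1% ± 1.61 (SD, n = 3) in TM6, 26.2% ± 0.165 in rho0, 35.3% ± 1.43 in PKO-1 and 32.1% ± 2.17 in PKO-6, so its share was lowest in rho0, where the transcript of 7059 bases held 52.4% ± 0.913. The main transcript of *Slc7a1* (7179 bases) held at least 85.6% in each library. *Slc7a3* shares were wide between replicates, from 64.1% to 100% for the transcript of 2277 bases in TM6, where few reads were counted. These shares are estimates that the authors' software made for reads that fit more than 1 transcript, and no test was run on them.

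Other plasma membrane amino acid transporters moved in both directions. Of 29 listed, 16 passed the count filter, and of these 2 were called higher and 6 lower in rho0, 3 higher and 5 lower in PKO-1, and 4 higher and 6 lower in PKO-6. Their median log2 fold changes against TM6 were -0.33 in rho0, -0.57 in PKO-1 and -0.15 in PKO-6. Calls in both directions included genes with low counts. *Slc1a7*, called higher in each line, averaged 3.12 normalized counts in TM6, 51.1 in rho0, 14.1 in PKO-1 and 69.5 in PKO-6. *Slc43a1* was called higher in PKO-1 at 85.1, and *Slc7a8* in PKO-6 at 19.7. *Slc1a6*, called lower in each line, fell from 91.5 in TM6 to 36.6 in rho0, 0.75 in PKO-1 and 34.3 in PKO-6. For this list and the lysosomal one below, the background is that 20.7% of all tested genes were called higher and 21.4% lower in rho0. The background shares were 16.4% and 17.9% in PKO-1, and 21.9% and 19.4% in PKO-6. Whether either list differed from these shares was not tested. *Slc6a15*, which encodes a transporter of branched-chain amino acids and proline, rose in all 3 lines, from a mean of 348 normalized counts in TM6 to 1813 in rho0, 750 in PKO-1 and 2262 in PKO-6. *Slc7a2*, a cationic amino acid carrier like *Slc7a1*, rose in PKO-6 alone among the 3 by the call rule (log2 fold change 1.14 ± 0.13). *Slc38a4*, which encodes SNAT4, fell from 3632 in TM6 to 33.5 in rho0, 131 in PKO-1 and 80.9 in PKO-6, and *Slc1a3*, which encodes a glutamate transporter, fell from 1814 to 84.6, 270 and 302. Of the lysosomal amino acid transporters, 7 of 8 were tested, and 2 were called higher and 3 lower in rho0, 0 higher and 3 lower in PKO-1, and 2 higher and 2 lower in PKO-6. *Slc38a7*, a lysosomal glutamine exporter, rose to a mean of 4611 in rho0 and 2903 in PKO-6 from 1708 in TM6, and *Slc38a9*, an arginine sensor of the lysosome, rose to 681 and 651 from 407. *Slc36a1*, a lysosomal proton-coupled transporter, fell in all 3 lines, from 1775 in TM6 to 815 in rho0, 939 in PKO-1 and 1065 in PKO-6, *Pqlc2*, a lysosomal carrier of cationic amino acids, fell from 599 to 299 in rho0 and 255 in PKO-1, and *Ctns*, the lysosomal cystine exporter, fell in PKO-6 (-0.95 ± 0.09) and PKO-1 (-0.60).

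The genes of the amino acid response, ATF4 with its kinases, partners and targets, were mostly higher in rho0 and PKO-6. Of 18 listed and tested, 14 were called higher and 1 lower in rho0, 7 higher and 1 lower in PKO-1, and 13 higher and 2 lower in PKO-6, with medians of 1.33, 0.18 and 1.35. Over all tested genes, the shares called higher and lower were 20.7% and 21.4% in rho0. They were 16.4% and 17.9% in PKO-1, and 21.9% and 19.4% in PKO-6. Against PKO-6, PKO-1 had 11 of the 18 called lower and 0 higher by edgeR's quasi-likelihood test, with a median of -1.02. In that comparison 17.6% of all tested genes were called lower and 11.5% higher. *Trib3*, which encodes a pseudokinase induced by ATF4, rose from a mean of 926 normalized counts in TM6 to 12615 in rho0, 2650 in PKO-1 and 10208 in PKO-6, and *Vldlr*, a lipoprotein receptor, from 272 to 8760, 4233 and 5474. *Eif2ak3*, the kinase of the endoplasmic reticulum stress branch, fell in rho0 (-1.04 ± 0.06) and PKO-6 (-0.83 ± 0.06), *Eif2ak2*, the kinase that responds to double-stranded RNA, fell in PKO-6 (-0.57 ± 0.06) and *Nupr1*, a stress-induced regulator, fell in PKO-1 (-0.64 ± 0.07) and rose in rho0 (0.67). *Atf4* itself, chosen for mention after its values were seen, had means of 15274 in TM6, 30936 in rho0, 16200 in PKO-1 and 34569 in PKO-6. A CARE match lay in the promoter windows of 6 of the 17 genes of this list with such windows, and of 2 of the 6 transporters. The share over all genes was 4.51%. An ARE match lay in the windows of 4 of the 17 and of 3 of the 6, against 14.0% of all genes. For *Slc6a9*, counted among these, the matches were only at starts inside the gene. Whether either motif has a part in these changes was not tested.

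**Figure D4:**
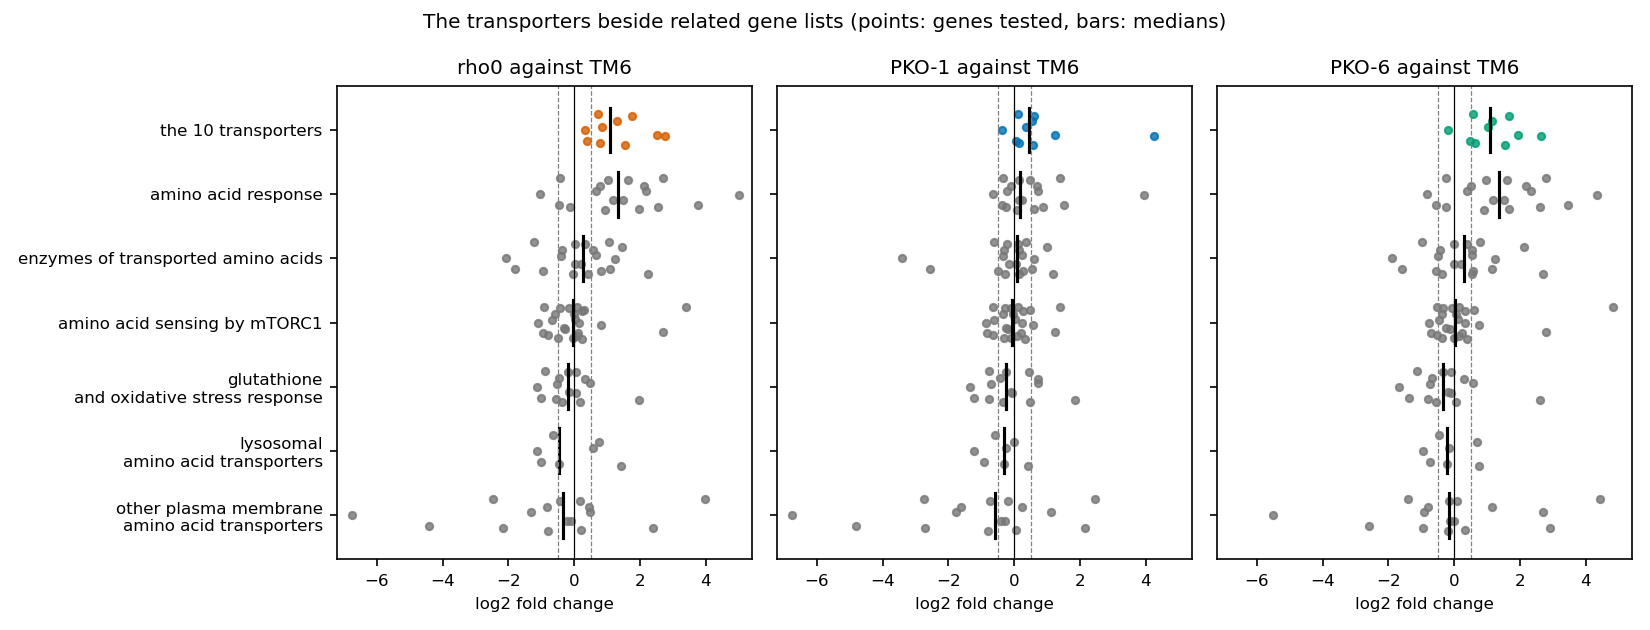
Log2 fold changes against TM6 (horizontal axis) of the 10 transporters and of 6 related gene lists in rho0, PKO-1 and PKO-6, 1 point per tested gene with the median as a bar and dashed lines at 0.5 and -0.5. The medians of the transporters (1.07, 0.45 and 1.09) and of the amino acid response (1.33, 0.18 and 1.35) lie right of 0. Those of the enzymes of transported amino acids (0.26, 0.09 and 0.31) also lie right of it. The medians of the other plasma membrane transporters (-0.33, -0.57 and -0.15), lysosomal transporters (-0.45, -0.32 and -0.22) and glutathione genes (-0.18, -0.26 and -0.34) lie left of it. Those of the mTORC1 list (-0.04, -0.06 and 0.02) lie on both sides.

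Cystine that enters through xCT is used to make glutathione. Of 15 genes of glutathione metabolism and the oxidative stress response, regulators such as *Keap1* and *Nfe2l2* included, 1 was called higher and 5 lower in rho0, 3 higher and 5 lower in PKO-1, and 2 higher and 7 lower in PKO-6, with medians of -0.18, -0.26 and -0.34. Among all tested genes the shares called higher and lower were 20.7% and 21.4% in rho0, 16.4% and 17.9% in PKO-1, and 21.9% and 19.4% in PKO-6. *Gclm*, the modifier subunit of the first enzyme of glutathione synthesis, fell from a mean of 5859 normalized counts in TM6 to 2665 in rho0, 2501 in PKO-1 and 2251 in PKO-6, and *Gsr*, glutathione reductase, fell from 6960 to 3441, 4128 and 2194. *Chac1*, which encodes an enzyme that breaks down glutathione and is also on the amino acid response list, rose from 1066 to 4212 in rho0, 1750 in PKO-1 and 6430 in PKO-6. *Nqo1*, a standard NRF2 target, had means of 1038 in TM6, 726 in rho0, 3763 in PKO-1 and 823 in PKO-6, and it was called higher in PKO-1 (1.86 ± 0.10) and lower in rho0 (-0.51). *Hmox1*, heme oxygenase, fell in PKO-1 (-1.34 ± 0.06) and in PKO-6 (-1.13), and the glutathione-degrading enzymes *Chac2* and *Ggct* rose, in PKO-1 (0.73 ± 0.12) and PKO-6 (0.57 ± 0.14) respectively.

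Among 24 genes of amino acid sensing by mTORC1, the kinase complex that LAT1 substrates activate, 3 were called higher and 6 lower in rho0, 3 higher and 5 lower in PKO-1, and 4 higher and 4 lower in PKO-6, with medians of -0.04, -0.06 and 0.02. All tested genes had 20.7% called higher and 21.4% lower in rho0, 16.4% and 17.9% in PKO-1, and 21.9% and 19.4% in PKO-6. Whether this list or that of the enzymes below differed from these shares was not tested. *Sesn2*, a leucine sensor that inhibits mTORC1 and is also on the amino acid response list, rose from a mean of 1076 in TM6 to 6966 in rho0, 2803 in PKO-1 and 7474 in PKO-6. *Rragd*, a Rag GTPase, rose from 78.0 to 826, 185 and 2199. The Rag GTPases *Rragb* (-0.87 ± 0.09) and *Rragc* (-0.82 ± 0.05) fell in PKO-1, *Lamtor4* of the lysosomal anchor (-1.09 ± 0.13) and *Gatsl2* (-0.95 ± 0.07) fell in rho0, *Sesn1* fell in PKO-6 (-0.76 ± 0.06) and rho0 (-0.81), and *Flcn* fell in PKO-6 (-0.72 ± 0.07) and PKO-1 (-0.64). Of 20 enzymes that use the transported amino acids, 8 were called higher and 3 lower in rho0, 4 higher and 3 lower in PKO-1, and 8 higher and 5 lower in PKO-6. Their medians were 0.26, 0.09 and 0.31. *Gpt2*, the mitochondrial alanine aminotransferase, rose from a mean of 1886 in TM6 to 8928 in rho0, 4290 in PKO-1 and 8129 in PKO-6, and *Got1*, the cytosolic aspartate aminotransferase, from 2761 to 7482, 5523 and 6563. *Gcsh*, a protein of the glycine cleavage system, fell in rho0 (-0.93 ± 0.07) and PKO-6 (-0.98 ± 0.07). *Glul*, glutamine synthetase, fell in PKO-1 (-0.62 ± 0.07) and rose in PKO-6 (0.53), and *Got2*, the mitochondrial aspartate aminotransferase, fell in PKO-6 (-0.55 ± 0.08).

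The genes whose pattern was most like that of *Slc7a11* over the 12 libraries were *Atf6* (Pearson r = 0.998 on the log2 CPM scale), *P2rx3* (0.995) and *Ostn* (0.995), out of 11205 genes compared, each averaging 100 normalized counts or more. *Atf6*, which encodes a transcription factor of endoplasmic reticulum stress, had means of 4031 in TM6, 9445 in rho0, 8033 in PKO-1 and 9864 in PKO-6. All 12 libraries come from 4 lines and the points of a line share their cells, and 302 genes had an r above 0.95 with *Slc7a11*. For *Slc7a5* the likest genes were *Ifrd2* (0.982), *Smyd2* (0.979) and *Dhps* (0.979), and 12 genes had an r above 0.95.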

How the data were processed

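The authors sequenced strand-specific, rRNA-depleted libraries from paired ends and merged technical duplicates. Gene values were deposited as unnormalized expected counts (read numbers estimated by a model), which the authors made with RSEM 1.2.25 and Bowtie2 against RefSeq transcripts of mm10 (GRCm38), with TPM and the percent of each transcript within its gene in the deposited transcript files of each library. RNA was extracted with TriZol or RNeasy, and which library got which is not given in the sources used here.

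The gene counts, of which 12.5% had decimals, were rounded to whole numbers. Genes were filtered with filterByExpr of edgeR 4.0.16 in R 4.3.3 (minimum count 10), which kept 14026. After TMM scaling, 1 quasi-likelihood model of 12 libraries gave all comparisons of the 4 lines. Adjusted p-values are Benjamini-Hochberg values over the 14026 genes, and an SE was obtained as the absolute log2 fold change over the root of F. TPM was summed over the transcripts of a gene for levels per length. The test was first tested on simulated data. The members, gene lists and tests were chosen with earlier results of these data known. Named beside the members are *Pnpt1*, for each list and comparison with TM6 up to 2 called genes in each direction by size of fold change (averaging 100 normalized counts or more), and the 3 genes most like *Slc7a11* and *Slc7a5*. *Slc1a7*, *Slc43a1*, *Slc7a8* and *Slc1a6* were named outside this rule, for their low counts. Alternatives were DESeq2 1.42.0 (size factors, Wald test), no filter, a replicate block, only the groups compared, 3 groups with pooled clones, other thresholds, *Rn45s* left out, chromosome medians removed, annotated lengths, and each library left out in turn. The precision at this depth was set by the spread between cultures, and the common biological coefficient of variation was 0.0837.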

Additional observations from a re-analysis of the deposited data

Results flagged for a closer look

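The changes against TM6 of 5 genes differed between the PKO clones by the test of PKO-1 against PKO-6, which does not use the level in TM6. The log2 differences were -0.52 for *Slc3a2*, 1.59 for *Slc7a3*, -1.04 for *Slc38a1*, -1.01 for *Slc1a5* and -1.37 for *Slc6a9*. Only *Slc7a3* was higher in PKO-1. Each clone is a single line, so a difference between clones is not a measure of how knockout lines vary in general.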

How the results depend on the processing

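Among 70 results (10 genes in 7 comparisons), 1491 of 1560 alternative values kept their direction and their side of the threshold. The numbers called were unchanged with a replicate block (8, 5, 8, 5, 8, 2 and 6 in the order rho0, PKO-1 and PKO-6 against TM6, PKO-1 against PKO-6, PKO-1 and PKO-6 against rho0, both clones against TM6). Same-numbered libraries did not all deviate together (correlations -0.385 to 0.25, 10 of 18 above 0.1), and 4 of 12 libraries correlated best with their own number. With an absolute log2 fold change above 1, the numbers called in the same order were 5, 2, 6, 4, 3, 0 and 4. A test against 0.5 gave 8, 2, 6, 4, 6, 0 and 6 in that order. By adjusted p alone, the numbers in the same order were 10, 7, 9, 8, 9, 6 and 9. The share of all tested genes that passed adjusted p alone was not computed, so these numbers have no background beside them. With chromosome medians removed, only the log2 fold changes were shifted and the adjusted p-values of the unshifted ones were kept, so the shifted values were not tested. Counted in that way, the numbers in the same order were 10, 5, 9, 7, 9, 1 and 7. In PKO-1 against TM6, *Slc38a2* (0.59) took the place of *Slc1a5*. Leaving out 1 library gave 4 to 5 for PKO-1 against TM6, 4 to 6 for PKO-1 against PKO-6 and 1 to 2 for PKO-6 against rho0. Removing chromosome medians reversed *Slc7a5* in PKO-6 against TM6 (0.23), *Slc38a2* in PKO-1 against PKO-6 (0.035), PKO-1 against rho0 (-0.13) and PKO-6 against rho0 (-0.18), and *Slc7a11* (-0.13) and *Slc7a3* (0.014) in PKO-6 against rho0. *Slc7a3* also reversed there without PKO-6 replicate 3, and leaving out each library in turn gave -0.19 to 0.017. None of these had been called. Annotated in place of effective lengths raised the levels per length by 23.5% to 37.3% and kept the order of the genes in all 4 lines. *Slc38a1* with pooled clones lost its call for both clones against TM6 (0.73; adjusted p = 0.0474). The causes were not tested.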
